A study of Mus musculus with 6 samples.

Results

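The genes described here are the enzymes of the tricarboxylic acid (TCA) cycle, the pyruvate dehydrogenase complex with its kinases and phosphatases, and enzymes that feed carbon into the cycle or draw it out. They were chosen by symbol from a fixed list of 35, and all 35 were found among the 23393 named genes of the table. RNA was sequenced from mouse T cells of strain C57BL/6 cultured for 2 days toward pathogenic Th17 cells. These are helper T cells that secrete interleukin-17 and drive inflammation after exposure to IL-23. The cultures were started from naive CD4 T cells, given IL-6, IL-1b and also IL-23, and stimulated by plate-bound antibodies to CD3 and CD28. The group called Stim1KO Stat3C here (genotype Stim1fl/fl Stat3CSTOPfl/fl CD4-Cre) carried floxed Stim1 alleles, whose product detects emptied calcium stores in the endoplasmic reticulum and triggers calcium entry across the plasma membrane. It was set against the group called Stat3C (genotype Stat3CSTOPfl/fl CD4-Cre), and each had 3 libraries. Both groups carried Stat3C, a hyperactive STAT3 transcription factor, expressed once Cre has removed a stop sequence, so neither is a wild type. Cre was expressed from the Cd4 promoter, which becomes active while T cells develop in the thymus, so the alleles had been changed before the cultures were started. The study asked how the transcriptome of such cells differs without Stim1, and its title names mitochondrial metabolism.

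In the TCA cycle, citrate synthase joins acetyl-CoA to oxaloacetate, and a circle of dehydrogenases then returns the carbon to oxaloacetate while loading NADH and reduced flavin for the respiratory chain. Pyruvate dehydrogenase makes the acetyl-CoA from pyruvate and is switched off by pyruvate dehydrogenase kinases and on again by phosphatases. In activated T cells the cycle also supplies citrate for lipid synthesis and aspartate for nucleotides, and glutamine and pyruvate carboxylase refill it.

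All values are normalised read counts, which the authors scaled for the depth of each library. A fold change is the mean of Stim1KO Stat3C less the mean of Stat3C after log2(value + 1), with p-values from limma adjusted by the Benjamini-Hochberg method over the 11947 genes tested and a threshold of 0.05. The reads recovered from the values came to between 16009755 and 22519269 per Stim1KO Stat3C library and between 23092044 and 51347367 per Stat3C library. Stim1 itself stood at 764 ± 67.2 in Stim1KO Stat3C and 1966 ± 33.9 in Stat3C (SD, n = 3 each), and the sources used here do not give which part of the gene is floxed. Xist was at 11549 in Stim1KO Stat3C replicate 3 and 8362 in Stat3C replicate 3, against at most 3.53 in the other libraries, and the Y-linked gene Ddx3y showed the opposite, so that replicate 3 of each group came from female cells and the rest from male cells. Whether the replicates came from separate mice is not stated, so the spread that the p-values rest on may be partly technical. Stat3C replicate 2 stood apart from the rest: its deviations from its group mean had an SD of 0.51 on the log2 scale over all tested genes, against 0.24 to 0.36 in the other libraries.

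The T cell markers Cd3d, Cd3e, Cd3g, Cd4 and Lck summed to 33931 to 37355 in Stim1KO Stat3C and 27937 to 30850 in Stat3C, and Cd3d, Cd3e and Cd3g rose (adjusted p = 0.012, 0.0163 and 0.0193). Of 6 Th17 markers, 3 fell, Il17a and Il17f among them, and 3 did not pass, and the sum was 4616 to 5449 in Stim1KO Stat3C and 14436 to 19057 in Stat3C. Some markers of CD8 T cells and B cells also differed between groups. The 2 CD8 T cell markers summed to 111 to 159 in Stim1KO Stat3C and 277 to 453 in Stat3C, and both fell. The 6 B cell markers summed to 32.2 to 63.0 in Stim1KO Stat3C and 134 to 381 in Stat3C. Of the 5 tested, 2 fell, Cd79a among them, and Cd79b, Cd22 and Pax5 did not pass. Ms4a1 was not tested and was at 0 in all Stim1KO Stat3C libraries. The 5 myeloid markers measured summed to 10.9 to 25.8 in Stim1KO Stat3C and 28.1 to 226 in Stat3C. The highest sum was that of Stat3C replicate 2, against 44.6 and 28.1 in Stat3C replicates 1 and 3. None of the 3 myeloid markers tested passed. The 4 natural killer cell markers summed to at most 18.1 in any library and the 4 dendritic cell markers to at most 41.8, with Siglech at 0 throughout, as were the 2 red cell markers found. The part of these cells in the results below was not tested, and in such bulk samples fewer cells of a type and less RNA per cell cannot be told apart.

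Of the 35 genes, 4 fell in Stim1KO Stat3C, none rose and 31 did not pass the test. Those that fell were Idh2, Suclg2, Dlat and Idh3a. Among all genes tested 4.96% were called lower and 8.62% higher. At an unadjusted p under 0.05 the members counted 14 lower and 1 higher (Pcx), where 31.1% of all tested genes passed and 14.0% were lower. The differences were small: the median log2 fold change was -0.12 over the 35 genes and -0.00 over all genes tested, and the members ran from -0.54 (Idh2) to 0.46 (Pcx). A negative fold change was found for 32 of the 35, the exceptions being Pcx, Pdp1 and Pdpr, whereas 50.2% of all tested genes had one. In 16 members all 3 Stim1KO Stat3C values lay below all 3 Stat3C values, which was true of 16.4% of all tested genes. In none did they lie above, as they did in 19.2% of all tested genes, and the groups were apart in either direction in 35.6%. The count of 4 rested on single libraries, and so did the count over all 11947 tested genes, which was 1623 with all libraries. Only 1 member, Idh2, fell without Stim1KO Stat3C replicate 1 or 2 or Stat3C replicate 1 or 3. Those fits called 686, 775, 617 and 651 of all tested genes, in that order. Without Stim1KO Stat3C replicate 3, 3 members fell and 1146 of all tested genes were called. Without Stat3C replicate 2, 8 members fell and Pcx rose, where 2899 of all tested genes were called. The member counts thus moved with the counts over all tested genes.

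**Figure D1:**
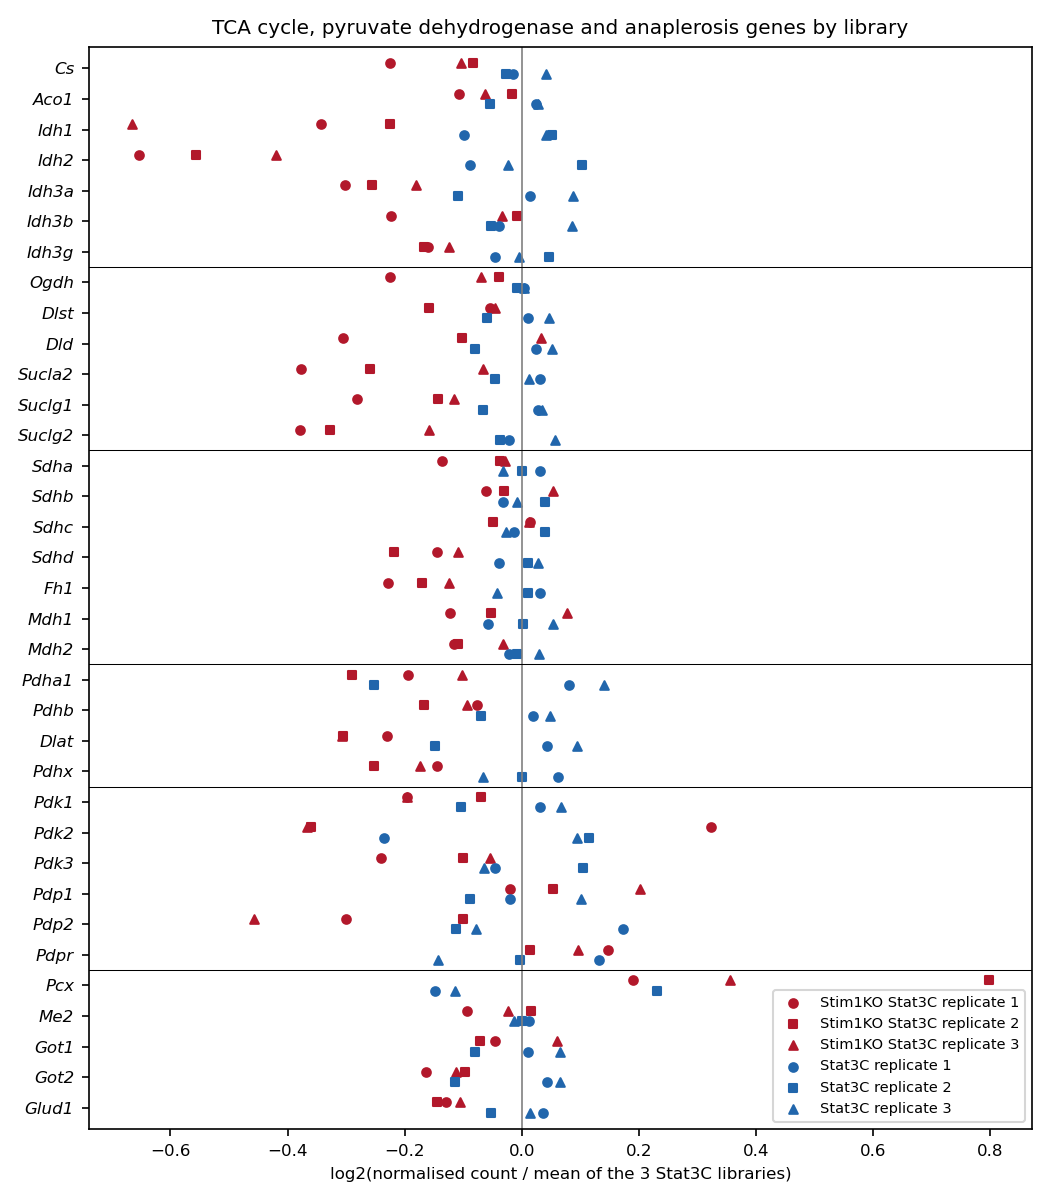
Value of each of the 35 genes in each library, as the log2 ratio of the normalised count to the mean of the 3 Stat3C libraries, grouped by role. Red symbols are Stim1KO Stat3C, blue symbols Stat3C, and the shape gives the replicate. Idh2 shows the widest gap between groups, and in the pyruvate dehydrogenase genes Pdha1 and Dlat the Stat3C replicate 2 symbol lies nearer the Stim1KO Stat3C symbols than the other Stat3C symbols do.

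**Figure D2:**
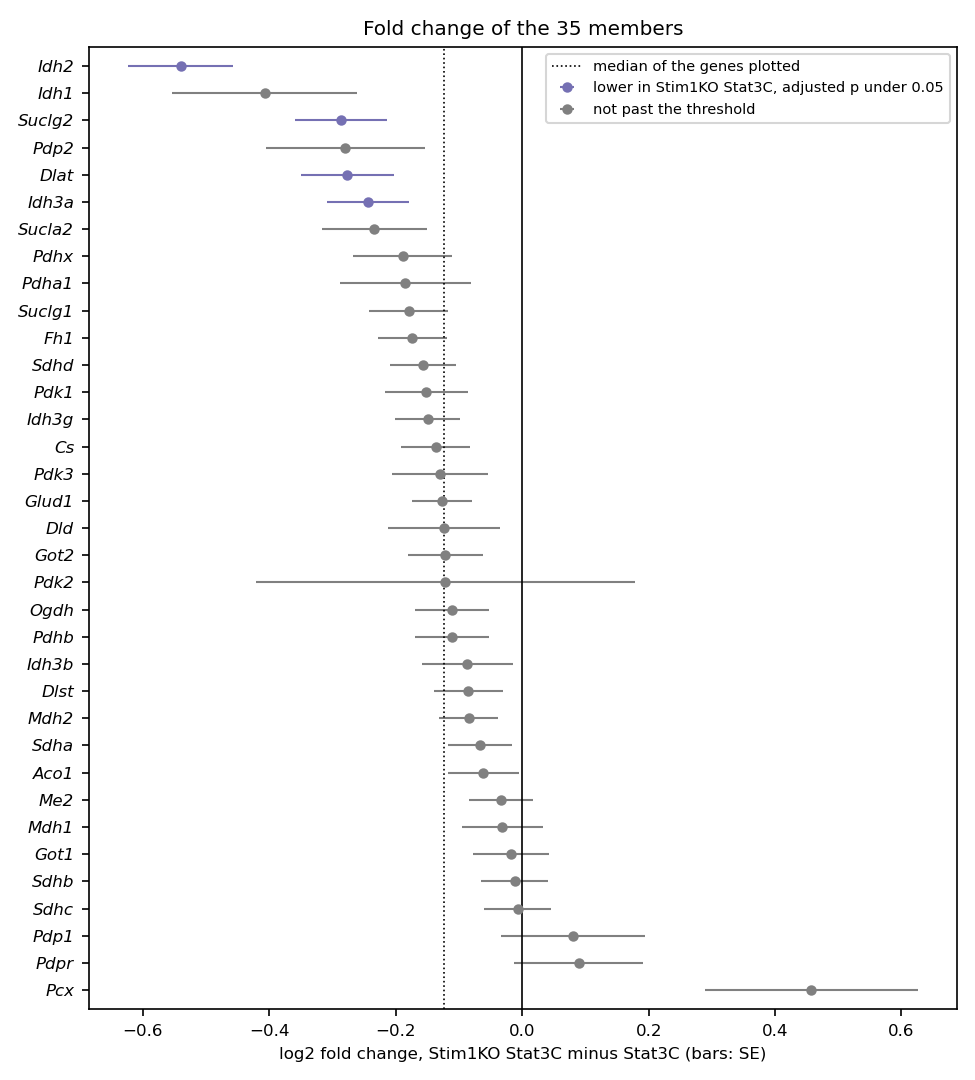
Log2 fold change (Stim1KO Stat3C minus Stat3C) of the 35 genes with its SE, sorted from lowest to highest. Idh2, Suclg2, Dlat and Idh3a passed the threshold, and the dotted line marks the members' median of -0.12.

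Among the enzymes from citrate synthase to isocitrate dehydrogenase, Idh2 and Idh3a fell and 5 did not pass. Idh2 encodes the mitochondrial isocitrate dehydrogenase that makes NADPH (chromosome 7, 80094846 to 80115392, minus strand, GRCm38). It had 913, 976 and 1074 normalised counts in Stim1KO Stat3C replicates 1, 2 and 3, against 1352, 1543 and 1414 in Stat3C replicates 1, 2 and 3. The lowest Stat3C value lay above the highest Stim1KO Stat3C value, and the Stim1KO Stat3C mean was 68.8% of the Stat3C mean. The log2 fold change was -0.54 (SE 0.08, adjusted p = 0.00617), and the call held under all 20 alternative settings, with adjusted p between 1.16e-06 and 0.034.

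Idh3a, the catalytic subunit of the NAD-dependent isocitrate dehydrogenase (chromosome 9, 54586334 to 54604661, plus strand), had 3073, 3173 and 3342 in Stim1KO Stat3C and 3826, 3513 and 4023 in Stat3C. The groups did not overlap, with Stat3C replicate 2 the lowest of its group (log2 -0.24, SE 0.07, adjusted p = 0.0443). Leaving out Stim1KO Stat3C replicate 1, 2 or 3 gave an adjusted p = 0.138, 0.125 or 0.0602, and leaving out Stat3C replicate 1 or 3 gave 0.15 or 0.158, so the call was lost each time. Leaving out Stat3C replicate 2 gave 0.00703. The other subunits of that enzyme did not pass. Idh3g had 2380, 2369 and 2438 in Stim1KO Stat3C and 2577, 2747 and 2651 in Stat3C, without overlap (log2 -0.15, SE 0.05, adjusted p = 0.0929). Idh3b had 3061, 3553 and 3491 in Stim1KO Stat3C and 3479, 3446 and 3792 in Stat3C, with overlap (log2 -0.09, adjusted p = 0.45).

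Cs, the citrate synthase gene and the highest of this class by count, had 8228, 9085 and 8948 in Stim1KO Stat3C and 9520, 9440 and 9896 in Stat3C. The groups did not overlap, but the difference did not pass (log2 -0.14, SE 0.05, adjusted p = 0.131). Idh1, the cytosolic and peroxisomal NADP-dependent isocitrate dehydrogenase, was low, at 178, 193 and 142 in Stim1KO Stat3C and 211, 234 and 233 in Stat3C. Its estimate was among the largest (log2 -0.41, SE 0.15), and it also did not pass (adjusted p = 0.104). Aco1, the cytosolic aconitase that doubles as an iron-responsive RNA-binding protein, stood at 1899 ± 59.1 in Stim1KO Stat3C and 1982 ± 62.9 in Stat3C with overlapping values.

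From oxoglutarate to succinate, Suclg2 fell and 5 genes did not pass. Suclg2 encodes the subunit that makes succinyl-CoA ligase specific for GDP (chromosome 6, 95473009 to 95718800, minus strand). It had 1330, 1379 and 1549 in Stim1KO Stat3C and 1703, 1686 and 1798 in Stat3C, without overlap (log2 -0.29, SE 0.07, adjusted p = 0.0372). The call was lost without Stim1KO Stat3C replicate 1 or 2 (adjusted p = 0.117 and 0.118) and without Stat3C replicate 1 or 3 (adjusted p = 0.112 and 0.139). Its ADP-specific counterpart Sucla2 had 1263, 1370 and 1565 in Stim1KO Stat3C and 1676, 1589 and 1654 in Stat3C, also without overlap (log2 -0.23, SE 0.08, adjusted p = 0.104). The shared subunit Suclg1 had 2702, 2971 and 3029 in Stim1KO Stat3C and 3346, 3137 and 3364 in Stat3C (log2 -0.18, SE 0.06, adjusted p = 0.0956). In all 3 ligase genes the Stim1KO Stat3C values lay below the Stat3C values, with Stim1KO Stat3C replicate 1 the lowest library.

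The oxoglutarate dehydrogenase complex showed less. Ogdh, its decarboxylase, had 5537, 6302 and 6166 in Stim1KO Stat3C and 6489, 6438 and 6492 in Stat3C (log2 -0.11, SE 0.06, adjusted p = 0.237). Its spread came from Stim1KO Stat3C replicate 1, while the 3 Stat3C libraries lay close together. Dlst, the succinyltransferase of the complex, had 4712, 4384 and 4737 in Stim1KO Stat3C and 4925, 4696 and 5053 in Stat3C, with overlap (adjusted p = 0.323). Dld, the dehydrogenase that this complex shares with pyruvate dehydrogenase, stood at 2173 ± 253 in Stim1KO Stat3C and 2358 ± 112 in Stat3C and overlapped as well (log2 -0.12, adjusted p = 0.378).

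From succinate to oxaloacetate none of 7 genes passed, although all 7 estimates were negative. Sdha, the flavoprotein of succinate dehydrogenase, had 6282, 6724 and 6768 in Stim1KO Stat3C and 7050, 6904 and 6749 in Stat3C, with overlap (log2 -0.07, adjusted p = 0.398). The iron-sulfur subunit Sdhb and the membrane anchor Sdhc had the smallest differences: Sdhb was at 3069 ± 127 in Stim1KO Stat3C and 3093 ± 79.4 in Stat3C (log2 -0.01, 95% interval -0.14 to 0.11), and Sdhc at 2179 ± 54.5 and 2191 ± 52.9 in the same groups (log2 -0.01, 95% interval -0.13 to 0.11). The signs of these small estimates turned in single settings (0.01 for each without Stat3C replicate 2). The other anchor, Sdhd, had 3329, 3166 and 3416 in Stim1KO Stat3C and 3585, 3708 and 3753 in Stat3C, without overlap (log2 -0.16, SE 0.05, adjusted p = 0.085). Fh1, fumarate hydratase, had 1912, 1989 and 2055 in Stim1KO Stat3C and 2288, 2256 and 2173 in Stat3C. It had the estimate of largest size in this class and did not overlap, yet did not pass (log2 -0.17, SE 0.06, adjusted p = 0.074). Mdh2, the mitochondrial malate dehydrogenase, had 10589, 10641 and 11218 in Stim1KO Stat3C and 11300, 11408 and 11699 in Stat3C (log2 -0.08, adjusted p = 0.254). Its cytosolic counterpart Mdh1, which works in the malate-aspartate shuttle, had 3981, 4178 and 4572 in Stim1KO Stat3C and 4165, 4339 and 4495 in Stat3C, with overlap (log2 -0.03, adjusted p = 0.767).

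Of the 4 core genes specific to pyruvate dehydrogenase, Dlat fell and 3 did not pass. Dlat encodes the acetyltransferase that forms the core of the complex (chromosome 9, 50634633 to 50659780, minus strand). It had 1912, 1815 and 1813 in Stim1KO Stat3C and 2311, 2023 and 2392 in Stat3C, without overlap (log2 -0.28, SE 0.07, adjusted p = 0.0436). Its call, like that of Idh3a, was lost when any library other than Stat3C replicate 2 was left out. The adjusted p was 0.0933, 0.128 or 0.0988 in the absence of Stim1KO Stat3C replicate 1, 2 or 3, and 0.158 or 0.156 in the absence of Stat3C replicate 1 or 3. It was 0.00364 in the absence of Stat3C replicate 2. With Xist as a covariate for the sex of the cells, Dlat also did not pass (adjusted p = 0.052). Pdha1, the X-linked gene of the decarboxylase that the kinases phosphorylate, had 4096, 3833 and 4365 in Stim1KO Stat3C and 4955, 3935 and 5163 in Stat3C. Stat3C replicate 2 lay inside the range of Stim1KO Stat3C and well below the other libraries of its own group. With that library Pdha1 did not pass (log2 -0.18, SE 0.10, adjusted p = 0.263), and without it the log2 fold change was -0.31 (adjusted p = 0.0087). Pdhb, the other decarboxylase subunit, had 2114, 1984 and 2090 in Stim1KO Stat3C and 2258, 2123 and 2304 in Stat3C (log2 -0.11, adjusted p = 0.232). Pdhx, which binds the dehydrogenase to the core, had 546, 507 and 535 in Stim1KO Stat3C and 631, 604 and 577 in Stat3C (log2 -0.19, SE 0.08, adjusted p = 0.145). In both Pdhb and Pdhx the groups did not overlap. Without Stat3C replicate 2, Suclg1 (log2 -0.21, adjusted p = 0.0421), Got2 (log2 -0.18, adjusted p = 0.0328) and Pdk1 (log2 -0.20, adjusted p = 0.0423) also passed. That fit called 2899 of all tested genes, against 1623 with all libraries.

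The sequences before the start sites of the members that fell are shown for Idh2, Suclg2 and Dlat (RefSeq, GRCm38.p6). They are printed 5′ to 3′ on the gene's strand, up to the first base upstream of every start that RefSeq or GENCODE gives. Capitals mark GGAAA on either strand, the core bound by NFAT, the calcium-dependent transcription factors of T cells; the Idh2 stretch holds none.
Idh2, minus strand, chr7:80115393-80115600: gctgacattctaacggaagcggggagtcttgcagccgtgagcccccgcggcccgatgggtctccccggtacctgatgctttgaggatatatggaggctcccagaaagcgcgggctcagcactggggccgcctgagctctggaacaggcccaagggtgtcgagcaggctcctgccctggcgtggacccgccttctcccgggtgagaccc
Suclg2, minus strand, chr6:95718847-95719096: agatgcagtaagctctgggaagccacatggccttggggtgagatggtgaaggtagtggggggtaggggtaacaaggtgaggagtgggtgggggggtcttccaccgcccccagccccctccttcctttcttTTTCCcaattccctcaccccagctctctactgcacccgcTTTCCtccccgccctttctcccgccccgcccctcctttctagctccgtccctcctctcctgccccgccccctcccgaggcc
Dlat, minus strand, chr9:50659781-50660030: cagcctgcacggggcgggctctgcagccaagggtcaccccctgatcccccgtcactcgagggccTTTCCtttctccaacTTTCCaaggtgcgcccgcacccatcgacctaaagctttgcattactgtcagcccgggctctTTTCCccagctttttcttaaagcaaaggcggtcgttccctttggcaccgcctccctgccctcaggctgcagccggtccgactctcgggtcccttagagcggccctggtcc
Idh3a is not in the promoter table.

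A set of 7 motifs was looked for on both strands in the 250 bases upstream of each RefSeq start, in 40 promoters of 31 members and in 32851 promoters of all genes. GGAAA stood in 45.0% of the member promoters and 55.6% of all. CCGGAAG, bound by ETS factors, stood in 7.5% of the member promoters and 6.91% of all, the E-box CACGTG bound by MYC in 17.5% and 6.02%, and the CREB site TGACGTCA in 12.5% and 1.55%. The consensus NRF1 site, CAAGGTCA bound by the estrogen-related receptors and TTCNNNGAA bound by STAT factors were in no member promoter, and in 0.782%, 1.33% and 7.02% of all. None of the 3 promoters shown held a motif other than GGAAA. Promoters of 1 gene can overlap and share a match, and these counts describe letters in a window, not binding.

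Among the regulators of pyruvate dehydrogenase none of 6 passed. Pdk1, the hypoxia-inducible kinase and the most abundant by count, had 2781, 3035 and 2780 in Stim1KO Stat3C and 3253, 2962 and 3337 in Stat3C, with overlap through Stat3C replicate 2 (log2 -0.15, SE 0.07, adjusted p = 0.16). Pdk3 had 1252, 1380 and 1424 in Stim1KO Stat3C and 1433, 1590 and 1414 in Stat3C (adjusted p = 0.283). Pdk2 was near the lower limit of what was tested, at 34.8 ± 10.2 in Stim1KO Stat3C and 37.2 ± 4.86 in Stat3C, so that its 95% interval reached from -0.81 to 0.57. Of the phosphatase genes, Pdp2, a catalytic subunit, had 351, 403 and 314 in Stim1KO Stat3C and 487, 399 and 409 in Stat3C (log2 -0.28, SE 0.13, adjusted p = 0.172), the estimate of largest size in this class. Pdp1, the calcium-sensitive catalytic subunit, stood at 257 ± 20.4 in Stim1KO Stat3C and 243 ± 16.2 in Stat3C (log2 0.08, 95% interval -0.18 to 0.34). Pdpr, the regulatory subunit, stood at 395 ± 18.3 in Stim1KO Stat3C and 372 ± 35.5 in Stat3C (log2 0.09). All 6 overlapped between groups.

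Among the anaplerotic enzymes and aminotransferases none of 5 passed. Pcx, pyruvate carboxylase, which makes oxaloacetate from pyruvate, had 608, 927 and 682 in Stim1KO Stat3C and 481, 626 and 492 in Stat3C. Its highest Stat3C value, that of replicate 2, lay above the lowest Stim1KO Stat3C value (log2 0.46, SE 0.17, adjusted p = 0.111), and without that library the log2 fold change was 0.58 (adjusted p = 0.0231). Glud1, glutamate dehydrogenase, had 4878, 4829 and 4961 in Stim1KO Stat3C and 5476, 5149 and 5390 in Stat3C, without overlap (log2 -0.13, SE 0.05, adjusted p = 0.118). Got2, the mitochondrial aspartate aminotransferase, had 9353, 9801 and 9693 in Stim1KO Stat3C and 10790, 9681 and 10959 in Stat3C, where again Stat3C replicate 2 lay within the Stim1KO Stat3C range (log2 -0.12, adjusted p = 0.203). Got1, its cytosolic counterpart, had 4306, 4234 and 4634 in Stim1KO Stat3C and 4477, 4207 and 4654 in Stat3C (log2 -0.02, 95% interval -0.16 to 0.12). Me2, the mitochondrial NAD-dependent malic enzyme, stood at 3206 ± 122 in Stim1KO Stat3C and 3279 ± 30.4 in Stat3C (log2 -0.03, adjusted p = 0.69).

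Summed over the 35 genes, the libraries held 104367, 108476 and 111468 normalised counts in Stim1KO Stat3C and 117643, 113877 and 119907 in Stat3C. The groups did not overlap, and the Stim1KO Stat3C mean was 92.3% of the Stat3C mean. By role, that percentage was 87.5% for the pyruvate dehydrogenase core, 89.2% from citrate synthase to isocitrate dehydrogenase, 90.8% from oxoglutarate to succinate, 91.5% for the kinases and phosphatases and 94.9% both from succinate to malate and for the anaplerotic enzymes. Such sums follow the genes with the most counts: the exceptions Pcx, Pdp1 and Pdpr stood at 139%, 106% and 106% within them. In the pyruvate dehydrogenase core the sum was 8669, 8139 and 8803 in Stim1KO Stat3C and 10155, 8685 and 10436 in Stat3C. Stat3C replicate 2 thus lay within the Stim1KO Stat3C range. For the anaplerotic enzymes Stat3C replicate 2, at 22942, also lay within that range (22220 to 23196). Of the 35 members, 20 lay below the mean of their group in Stat3C replicate 2, with a median deviation of -0.03 on the log2 scale. The deviations of that library were uneven, -0.24 for Pdha1, -0.14 for Dlat and -0.11 for Got2 against 0.24 for Pcx and 0.11 for Idh2. In the Stim1KO Stat3C libraries, 25 members lay below the group mean in replicate 1 and 7 in replicate 3.

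**Figure D3:**
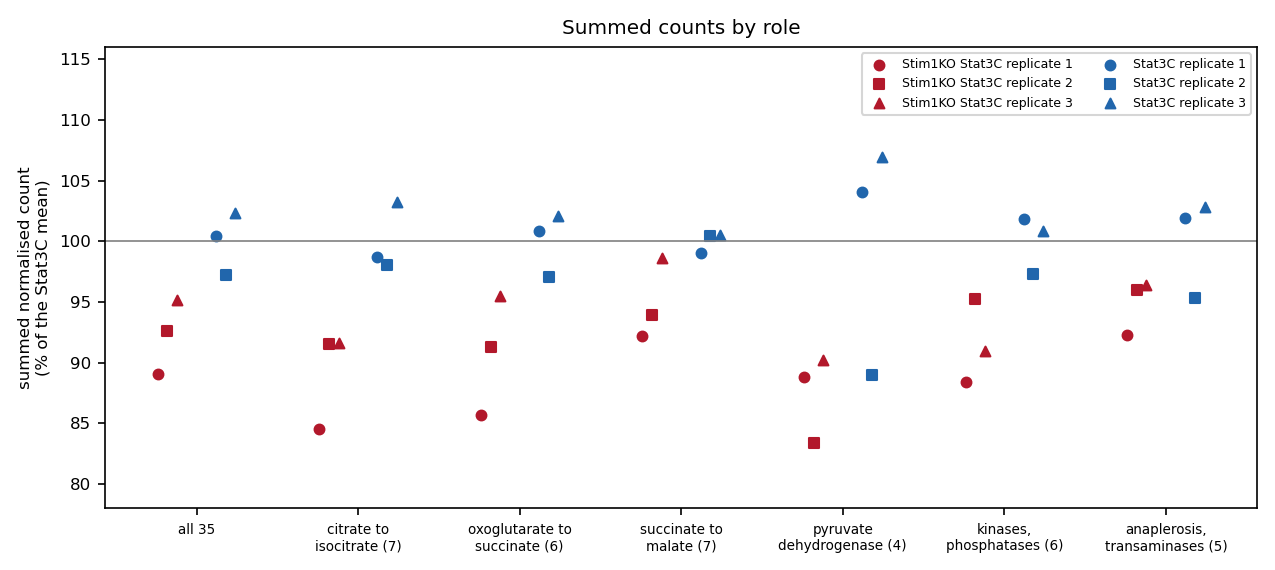
Summed normalised counts of the 35 genes and of each role, per library, as a percentage of the Stat3C mean (the number of genes is in brackets). Red symbols are Stim1KO Stat3C, blue symbols Stat3C. The sum over all 35 genes does not overlap between groups. In the pyruvate dehydrogenase core and the anaplerotic enzymes Stat3C replicate 2 sits among the Stim1KO Stat3C libraries.

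Levels were compared between genes per kilobase of exon, from the union of exons in GENCODE M21. The order depends on the length chosen: the longest transcript has 2530 of these 4824 bases in Got2 but all 1231 in Sdhd. Mdh2 was highest, at 3036 normalised counts per kilobase in Stim1KO Stat3C and 3220 in Stat3C, followed by Sdhd (2684 and 2991 in the same groups) and Got2 (1993 and 2172). The lowest were Pdk2 (11.0 and 11.8), Pdp1 (57.1 and 53.9) and Pdp2 (62.5 and 75.9). Among the isocitrate dehydrogenases, Idh2 stood at 382 per kilobase in Stim1KO Stat3C and 555 in Stat3C and Idh1 at 61.8 and 81.5, while the subunits of the NAD-dependent enzyme lay between 630 and 984 in Stim1KO Stat3C and 747 and 1044 in Stat3C. Pdk3 lay above Pdk1 per kilobase (528 against 368 in Stim1KO Stat3C and 577 against 409 in Stat3C), although Pdk1 had more counts. Pcx was at 155 in Stim1KO Stat3C and 112 in Stat3C.

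**Figure D4:**
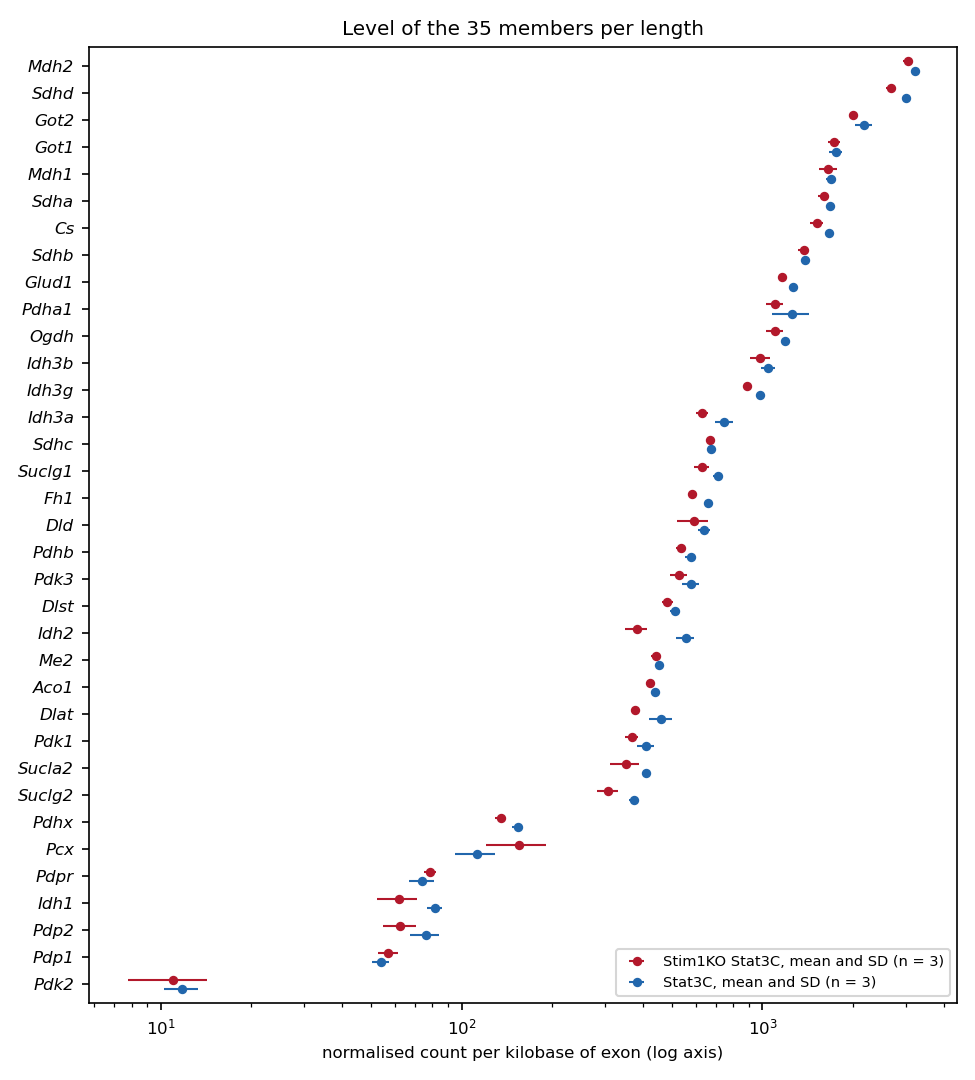
Level of each of the 35 genes in normalised counts per kilobase of exon (log axis), as the mean and SD of 3 libraries, with Stim1KO Stat3C in red above Stat3C in blue. Levels range from Pdk2 (11.0 in Stim1KO Stat3C, 11.8 in Stat3C) to Mdh2 (3036 and 3220), and the difference between groups is small beside the range between genes.

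The RNA make-up of the enzyme complexes, as each subunit's share of the per-kilobase sum, moved by little. Shares within a complex are not independent, since a lower share of 1 subunit raises those of the others. Their size also depends on the length chosen. With the longest transcript in place of the union of exons, Sdhd made up 33.0% in Stim1KO Stat3C and 34.9% in Stat3C. By that length Sdhb made up 30.6% and 29.3% in the same groups, and Idh3a 30.7% and 32.7%, there without overlap. The shares below use the union of exons. In the NAD-dependent isocitrate dehydrogenase, Idh3a made up 25.2% ± 0.50 in Stim1KO Stat3C and 26.9% ± 1.2 in Stat3C (SD, n = 3 each). These groups overlapped through Stat3C replicate 2. Dlat made up 13.8% ± 0.83 of the pyruvate dehydrogenase sum in Stim1KO Stat3C and 14.9% ± 0.07 in Stat3C, and no Stim1KO Stat3C library reached the lowest Stat3C library. Sdhd made up 42.4% ± 0.98 of the succinate dehydrogenase sum in Stim1KO Stat3C and 44.5% ± 0.78 in Stat3C, and Sdhb 21.7% ± 0.37 and 20.6% ± 0.29, in each case without overlap. Suclg2 made up 23.9% ± 0.58 of the succinyl-CoA ligase sum in Stim1KO Stat3C and 25.0% ± 0.57 in Stat3C, also without overlap. Of 5 ratios between isoenzymes, none could pass, since 3 libraries against 3 give an exact two-sided permutation test no p below 0.1. The ratio of Got2 to Got1 was 1.15 ± 0.06 in Stim1KO Stat3C and 1.24 ± 0.03 in Stat3C (exact permutation p = 0.2), that of Mdh2 to Mdh1 1.84 ± 0.07 and 1.91 ± 0.04 (exact p = 0.3), and that of Suclg2 to Sucla2 0.88 ± 0.03 and 0.91 ± 0.03 (exact p = 0.2), in the same order of groups. Idh2 to Idh1 was 6.33 ± 1.52 in Stim1KO Stat3C and 6.81 ± 0.28 in Stat3C (exact p = 0.7), and Pdk1 to the sum of Pdk2 and Pdk3 was 0.68 ± 0.05 and 0.70 ± 0.09 (exact p = 0.8). Adjusted over the 5 ratios these p-values were 0.5 to 0.8.

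The pathway was extended by a list of 49 neighbouring genes (transporters, assembly factors, glutamine, propionate and branched-chain enzymes). Of these, 48 were found and 41 had a mean of at least 10 and were tested. Of the 41, 5 (12.2%) fell, 1 rose and 35 did not pass, with a median log2 fold change of -0.14. Among all genes tested 4.96% were called lower and 8.62% higher, and the median was -0.00. Slc25a1, the carrier that exports citrate from the mitochondrion, had 1402, 1652 and 1479 in Stim1KO Stat3C and 2000, 2075 and 2157 in Stat3C. The groups were well apart (log2 -0.46, SE 0.07, adjusted p = 0.007), and the call held in all 20 alternative settings. Acly, ATP citrate lyase, which cleaves the exported citrate to acetyl-CoA, had 11861, 13202 and 12257 in Stim1KO Stat3C and 15289, 14125 and 15207 in Stat3C (log2 -0.26, SE 0.06, adjusted p = 0.0257). Its call was lost without Stim1KO Stat3C replicate 1 or 3 (adjusted p = 0.0897 and 0.0708) and without Stat3C replicate 1 or 3 (0.109 and 0.104).

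Glutamine and alanine enzymes and a lactate dehydrogenase made up the other calls. Gls2, the liver-type glutaminase, had 290, 364 and 305 in Stim1KO Stat3C and 437, 435 and 467 in Stat3C (log2 -0.49, SE 0.11, adjusted p = 0.0256). It was no longer called without Stim1KO Stat3C replicate 1 or 3 (adjusted p = 0.0843 and 0.0676) and Stat3C replicate 1 or 3 (0.0889 and 0.105). Glul, glutamine synthetase, had 1495, 1565 and 1608 in Stim1KO Stat3C and 1782, 1963 and 1907 in Stat3C (log2 -0.28, SE 0.06, adjusted p = 0.0255), with the call lost without Stim1KO Stat3C replicate 1 or 2 (adjusted p = 0.0861 and 0.0766) and Stat3C replicate 1 or 3 (0.0546 and 0.0978). Gpt2, the mitochondrial alanine aminotransferase, which makes oxoglutarate from glutamate, was the gene that rose. It had 268, 264 and 223 in Stim1KO Stat3C and 143, 135 and 174 in Stat3C (log2 0.74, SE 0.15, adjusted p = 0.0157). It was no longer called without Stim1KO Stat3C replicate 1 or 2 (adjusted p = 0.0662 and 0.0647) or Stat3C replicate 1 (0.0701). Ldhb, a lactate dehydrogenase subunit, fell, with 720, 544 and 840 in Stim1KO Stat3C and 1122, 954 and 1003 in Stat3C (log2 -0.57, adjusted p = 0.0436; lost without Stim1KO Stat3C replicate 1 or 2 at 0.114 and 0.081 and without Stat3C replicate 1 or 3 at 0.148 and 0.119). Ldha, the other subunit, stood at 87188 ± 1258 in Stim1KO Stat3C and 95070 ± 3405 in Stat3C (log2 -0.12, adjusted p = 0.145), and Oxct1, which uses succinyl-CoA to activate ketone bodies, at 3085 ± 160 and 3262 ± 97.8 (adjusted p = 0.37).

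**Figure D5:**
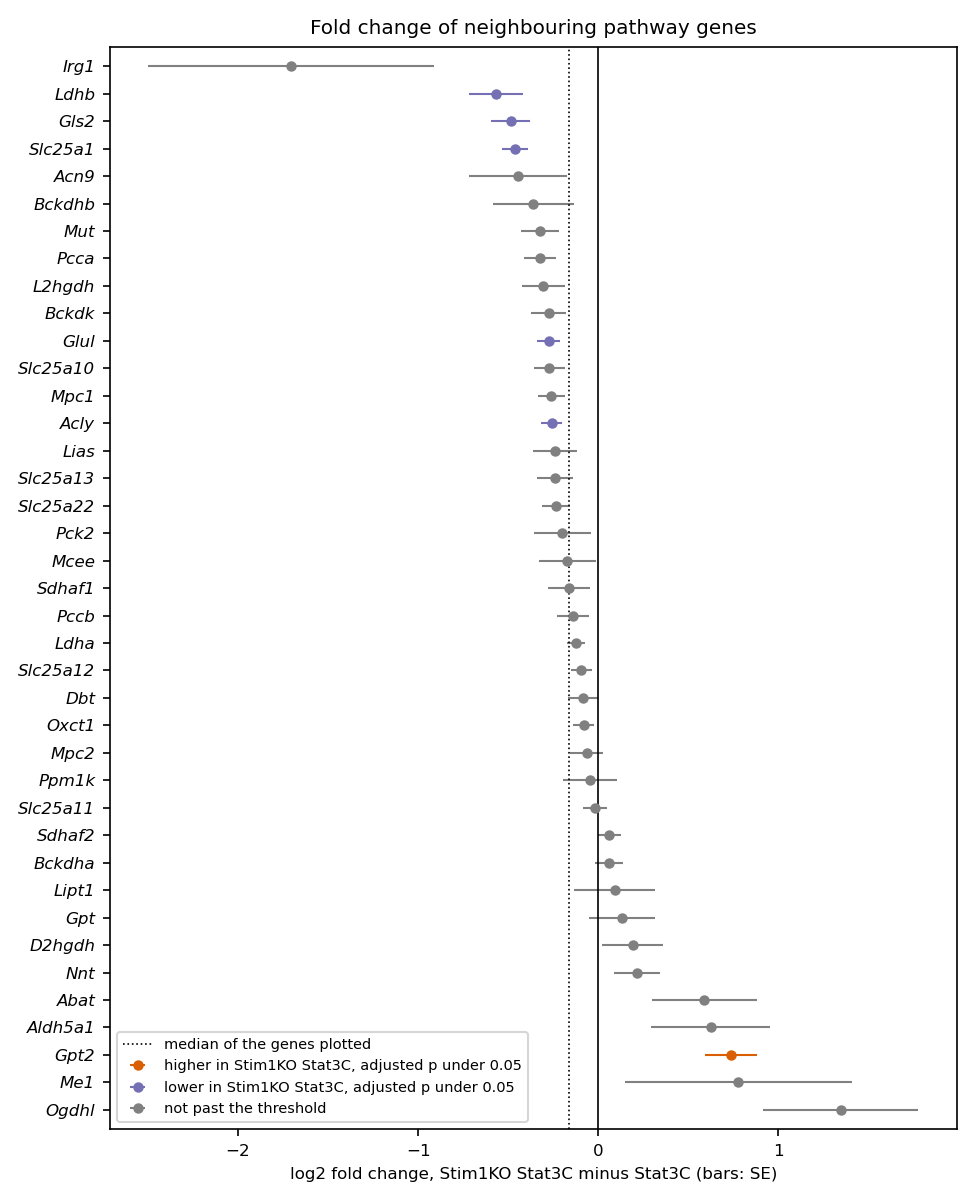
Log2 fold change (Stim1KO Stat3C minus Stat3C) with its SE of 39 of the 41 neighbouring pathway genes that were tested, sorted, with a dotted line at their median of -0.16. Slc25a1, Acly, Gls2, Glul and Ldhb passed the threshold as lower and Gpt2 as higher, and genes with low counts such as Irg1, Ogdhl and Me1 have wide errors.

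The count of neighbouring genes also rested on single libraries, with 1 to 8 lower and 0 to 3 higher when 1 library was left out. Over all tested genes, 617 to 2899 were called in these fits. The lowest count of 1, Slc25a1, was found without Stim1KO Stat3C replicate 1, Stat3C replicate 1 or Stat3C replicate 3, 3 fell without Stim1KO Stat3C replicate 2 or 3, and 8 without Stat3C replicate 2. The exons of Pdha1 share 603 bases with Map3k15 on the other strand, those of Got2 434 with Gm45760, those of Pdpr 169 with 9430091E24Rik, those of Mdh1 52 with Wdpcp and those of Idh3b 5 with Nop56. The strand setting of the counting was not stated, so reads in these stretches are uncertain, and so are reads shared with processed pseudogenes. Idh2, Suclg2, Dlat and Idh3a overlapped no other annotated exon.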

How the data were processed

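Libraries were prepared for polyadenylated RNA by a strand-keeping method from 100 ng of input (per the labels' protocols). As tools, the submitters' processing notes list DESeq2 1.22.2, HTSeq 0.11.1 and TopHat2 2.1.1, and as build mm10. Their roles, the gene models and the counting settings were not stated. The deposited values are a normalised signal: all values above 0 in a column were whole multiples of 1 step, within 0.01, so the authors' table was taken as read counts divided by a size factor, and whole reads were recovered from it. For Stim1KO Stat3C replicate 3 the step, 0.995, is too near 1 for an automatic test to tell from rounding. A value of 0 allows up to 3 reads (1.30 to 4.11 normalised counts; counting error only). Of 23420 rows, 27 whose names had become dates were left out (at most 0.217% of the reads).

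The test was limma 3.58.1 (R 4.3.3) with a mean-variance trend, two-sided, on log2(value + 1) of 11947 genes whose mean reached 10. Alternatives changed the pseudocount, filter, scaling, variance prior, library weights, depth, an Xist covariate and the model (edgeR 4.0.16, which called 1507 genes on the recovered reads, DESeq2 1.42.0, which called 2250, and voom), and left out each library. Steps were tested on simulated data. Lengths and positions came from GENCODE M21 and promoters from RefSeq (GRCm38.p6, found for 31 of the 35 genes). Permutation tests used scipy 1.17.1.

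The members, the neighbouring list and the tests were chosen with earlier results of these data known, and the motifs after the values were seen. Values are given per library for every member that passed and, in each role, for up to 3 that did not pass with the highest mean and the 1 with the largest estimate; values of other members were added to complete their enzyme. Of the neighbouring genes, those past the threshold and the 4 highest that did not pass are named, except that some genes are not reported here. Replicates were numbered in accession order.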

Additional observations from a re-analysis of the deposited data

How the results depend on the processing

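All 20 alternatives used were applied 1 at a time, apart from edgeR without Stim1KO Stat3C replicate 3. No paired analysis was possible because the labels give no replicate numbers shared between the groups. Against 1623 genes changed, 4 members lower, 0 higher, and 5 neighbouring genes lower and 1 higher, limma without a variance trend gave 827, 1, 0, 1 and 1. Library weights gave 3959, 14, 1, 15 and 3, DESeq2 2250, 7, 0, 10 and 2, and edgeR without Stim1KO Stat3C replicate 3 922, 3, 0, 2 and 3. Voom gave 2 members lower, and with Xist as a covariate 1738 genes changed, 3 members were lower (not Dlat), and 6 neighbouring genes were lower and 2 higher. With 1 library left out, 617 to 2899 genes changed, 1 to 8 members were lower and 0 to 1 higher, and 1 to 8 neighbouring genes were lower and 0 to 3 higher. The median of the members stayed between -0.15 and -0.10 in all settings. Idh2 and Slc25a1 kept their calls in all settings, while Dlat and Idh3a lost theirs in 9 of 20 and Suclg2 in 5. Among the named genes, signs turned for Sdhb (0.0046) and Pdpr (-0.0091) with library weights, for Sdhc (0.0051) and Pdk2 (0.20) at equal depth, and Pdk2 (0.0087) with edgeR without that library. Leaving out 1 library gave ranges across 0 for Sdhb (-0.045 to 0.012), Sdhc (-0.020 to 0.014), Mdh1 (-0.087 to 0.013), Got1 (-0.057 to 0.016) and Mpc2 (-0.11 to 0.0071), whose highest value in any setting was 0.012. The causes were not tested. Low counts limit what can be said of Pdk2 and the 7 neighbouring genes below a mean of 10.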

Other observations

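Some neighbouring genes at low counts had large estimates without a call, and were chosen for mention after their values were seen. Irg1, which encodes the enzyme that makes itaconate from the cycle intermediate aconitate and is known from macrophages, had 6.85, 23.6 and 15.9 in Stim1KO Stat3C and 31.6, 170 and 19.4 in Stat3C (limma, log2 -1.71, SE 0.79, adjusted p = 0.185), and passed in 1 of 19 alternative settings. Without Stat3C replicate 2 its log2 fold change was -0.80, and leaving out 1 library gave -2.33 to -0.80. The value of 170 belongs to Stat3C replicate 2, the library with the highest sum of myeloid markers (226). In Stat3C replicates 1 and 3, where Irg1 was at 31.6 and 19.4, that sum was 44.6 and 28.1. A link between them was not tested. Ogdhl, a relative of the oxoglutarate dehydrogenase gene, had 95.9, 52.6 and 31.8 in Stim1KO Stat3C and 22.1, 26.2 and 15.5 in Stat3C, without overlap (log2 1.35, SE 0.43, adjusted p = 0.0759), and passed in 6 of 19 alternative settings. Mpc1, a subunit of the mitochondrial pyruvate carrier, had 919, 962 and 1044 in Stim1KO Stat3C and 1174, 1104 and 1222 in Stat3C (log2 -0.26, SE 0.07, adjusted p = 0.0557), and passed in 6 of 20. Its partner Mpc2 stood at 567 ± 47.6 in Stim1KO Stat3C and 592 ± 36.6 in Stat3C (log2 -0.06, adjusted p = 0.673).

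The enzymes of propionate and branched-chain breakdown, some of which lead to succinyl-CoA, did not pass, although a few did in other settings. Pcca, a propionyl-CoA carboxylase subunit, had 429, 483 and 484 in Stim1KO Stat3C and 545, 608 and 590 in Stat3C (log2 -0.32, SE 0.09, adjusted p = 0.0504), and passed in 6 of 20 alternative settings. Mut, methylmalonyl-CoA mutase, had 337, 320 and 337 in Stim1KO Stat3C and 416, 459 and 374 in Stat3C (log2 -0.32, SE 0.10, adjusted p = 0.0756), and passed in 1 of 20, as did Bckdk, the kinase of the branched-chain dehydrogenase. In Pcca and Mut the groups did not overlap. Nnt, the mitochondrial transhydrogenase that makes NADPH from NADH, was detected in every library, at 578 to 666 in Stim1KO Stat3C and 443 to 616 in Stat3C. Pdk4, a kinase of pyruvate dehydrogenase known from fasted muscle and liver, had at most 1.07 normalised counts in any library, which is within the limit that 3 reads set.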
